A study of Mus musculus with 6 samples.

Results

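The genes described here are protein-coding genes that hardly any reads reached in control hepatocytes and that start shortly after the end of an active gene on the same DNA strand. Levels are in FPKM, reads per length of gene model scaled by a factor for each library. A gene entered the set only when its mean over the 3 control libraries was below 1 FPKM. At least 1 of the 6 libraries also had to hold a read. Its start had to lie 1 to 10000 bp past the end of a same-strand gene with a mean of at least 5 FPKM over all 6 libraries. Of 54118 gene models in the table, 22058 were protein-coding, 6210 of those were low by this ceiling, and 561 of the low genes (9.03%) had such an upstream neighbour. The set was therefore chosen by the control level and the level of the upstream gene, and neither is a finding. The size of the gap within its limits, the direction of the difference in HuR libraries and the difference of the upstream gene were not used directly. The rule still touches both differences. For 59 genes no control library held a read, so they entered through HuR reads alone and could only rise. The upstream mean includes the HuR libraries, so an upstream gene could pass 5 FPKM through a rise in them. A ceiling on the control level also leaves more room for a rise than for a fall. Counts are therefore set beside those of other low genes under the same ceiling.

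The cells were primary hepatocytes of C57BL/6 mice, freed by perfusing the liver with collagenase and kept in RPMI 1640 with 2% FBS. They were infected overnight with an adenovirus for beta-galactosidase (beta-Gal, the control) or for HuR, so that every sample carries a virus and the groups differ in what it delivers. HuR, encoded by Elavl1, is an RNA-binding protein of AU-rich and U-rich sequences in messenger RNA. Total RNA of 3 samples a group was sequenced on a NovaSeq 6000. The labels do not say whether samples of a group came from separate animals or cultures, so p-values reflect the spread among these libraries only, and that spread may be technical.

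RNA polymerase II does not stop where an mRNA ends. The new transcript is cut after a polyadenylation signal, most often AATAAA in the DNA, and the polymerase travels on until the exonuclease Xrn2 degrades the trailing RNA and it lets go of the template. RNA made beyond a gene end is called read-through and is known to increase in mammalian cells under osmotic stress, heat and several virus infections. An FPKM value counts reads on the exons of a gene model and does not show where their transcript began, and where the transcripts of these genes began was not tested.

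Each gap is the stretch of DNA between the upstream end and the downstream start, and some short gaps can be read whole. The following 6, from RefSeq on GRCm38.p6 and written 5′ to 3′ on the strand of the genes, are examples of all the DNA between a pair of gene models, for genes with and without a call. Those of Fbxl22 (chr9:66514594-66514636, minus strand, after Usp3), Tmem25 (chr9:44799308-44799396, minus strand, after Ttc36) and Tmc4 (chr7:3677554-3677788, minus strand, after Mboat7) lead into genes that were higher in HuR libraries. Those of Fut11 (chr14:20694853-20694967, plus strand, after Sec24c), Apoc2 (chr7:19677942-19678082, minus strand, after Apoc4) and Slc39a5 (chr10:128401230-128401394, minus strand, after Nabp2) lead into genes that were not called.
Fbxl22: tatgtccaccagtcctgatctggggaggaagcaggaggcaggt
Tmem25: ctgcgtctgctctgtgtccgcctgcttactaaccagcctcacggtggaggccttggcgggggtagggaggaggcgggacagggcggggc
Tmc4: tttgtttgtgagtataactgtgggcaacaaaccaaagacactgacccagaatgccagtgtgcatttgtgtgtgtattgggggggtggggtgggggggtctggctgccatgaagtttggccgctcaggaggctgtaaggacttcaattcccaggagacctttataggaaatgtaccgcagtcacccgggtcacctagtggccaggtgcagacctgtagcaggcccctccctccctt
Fut11: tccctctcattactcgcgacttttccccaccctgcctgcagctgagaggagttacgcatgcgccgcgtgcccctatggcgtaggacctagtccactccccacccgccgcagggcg
Apoc2: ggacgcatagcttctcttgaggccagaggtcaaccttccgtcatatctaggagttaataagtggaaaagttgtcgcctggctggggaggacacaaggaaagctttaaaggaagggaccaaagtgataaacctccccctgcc
Slc39a5: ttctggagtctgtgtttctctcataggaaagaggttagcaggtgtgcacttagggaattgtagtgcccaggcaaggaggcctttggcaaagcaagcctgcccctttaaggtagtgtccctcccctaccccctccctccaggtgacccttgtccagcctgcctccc

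For 3 of the genes with large rises, the last 250 bases before the start are given, which lie within the gap. They belong to Gzmm (chr10:79688770-79689019, plus strand), Ager (chr17:34597612-34597861, plus strand) and Ubap1l (chr9:65360791-65361040, plus strand). Capitals mark AATAAA, which occurs once before Ubap1l and in none of the other 8 sequences on this strand.
Gzmm: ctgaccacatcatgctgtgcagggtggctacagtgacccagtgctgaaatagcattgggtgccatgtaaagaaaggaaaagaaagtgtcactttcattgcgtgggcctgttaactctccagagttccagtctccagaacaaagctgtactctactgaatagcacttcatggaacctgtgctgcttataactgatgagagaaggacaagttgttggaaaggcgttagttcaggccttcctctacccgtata
Ager: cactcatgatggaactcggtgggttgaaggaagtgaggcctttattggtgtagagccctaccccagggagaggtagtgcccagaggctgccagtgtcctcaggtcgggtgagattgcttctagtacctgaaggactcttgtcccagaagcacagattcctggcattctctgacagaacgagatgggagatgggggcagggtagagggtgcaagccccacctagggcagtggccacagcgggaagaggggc
Ubap1l: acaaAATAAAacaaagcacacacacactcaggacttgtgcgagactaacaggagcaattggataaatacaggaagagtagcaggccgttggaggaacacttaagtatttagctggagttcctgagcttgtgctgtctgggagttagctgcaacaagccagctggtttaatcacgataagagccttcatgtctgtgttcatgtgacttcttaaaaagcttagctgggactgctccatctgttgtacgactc

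Over 300 bases around the RefSeq start (250 before, 50 after), 417 of the 561 genes had a window among the RefSeq promoters used. Chromosome 18 and windows of another length were left out. For 332 genes the RefSeq start lay within 100 bp of the start that defines the gap. For the set the entry nearest to that start was taken, and for the sets beside it the first entry of each gene name, so the windows were not picked alike. AATAAA stood on the sense strand of 10.7% of the 121 such windows of genes higher in HuR and of 7.43% of the 296 others of the set. The same held for 8.03% of 4058 windows of other low genes and for 11.7% of all 27025 promoters used. ATTTA, the core of AU-rich elements, stood on the sense strand of 8.26% and 10.5% of the windows of the set, of 15.3% of those of other low genes and of 20.5% of all promoters. Windows of genes higher in HuR held a median of 6 CG dinucleotides, those of the other genes of the set 12, those of other low genes 11 and those of all promoters 7. These are counts of letters in a window and not sites.

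HuR libraries held more RNA of many of these genes than control libraries. Of all 561 genes, 166 (29.6%) were called higher in HuR and 6 (1.07%) lower by limma with an adjusted p of at most 0.05, while of the 5649 other low genes 460 (8.14%) were higher and 122 (2.16%) lower. Among all 14977 genes tested, 19.4% were higher and 19.6% lower, and among the 12204 protein-coding genes tested 19.8% and 22.3%. Counted over tested genes alone, 48.3% of the set were higher and 1.74% lower, against 19.6% and 5.19% of the other low genes. The 166 genes make up 26.5% of the 626 low genes called higher and, among the 163 of these with a log2 difference of at least 2, 75 (46.0%) belong to the set. Differences are on the scale of log2(FPKM + 0.1), which understates the change of genes this low. In lysates of whole cultures, more cells making an RNA and more RNA per cell cannot be told apart.

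The sum over all 561 genes was 116, 112 and 113 FPKM in the beta-Gal libraries and 345, 345 and 346 FPKM in the HuR libraries. Every HuR library thus lay far above every control library, with little spread inside either group. The whole reads behind these sums numbered 7710, 8050 and 7861 in beta-Gal and 16174, 18233 and 16972 in HuR libraries. The other low genes summed to 930, 943 and 947 FPKM in beta-Gal and 1302, 1368 and 1322 FPKM in HuR libraries. Genes of the set at 1 FPKM or more numbered 8, 6 and 4 in the control libraries, and 94, 95 and 94 in those with HuR. The ceiling of the rule keeps the control counts low, and under the same ceiling the other low genes at 1 FPKM or more numbered 59, 71 and 72 in the control libraries and 242, 268 and 233 with HuR. The mean of the HuR group reached 1 FPKM for 93 genes (16.6%), against 4.27% of the other low genes.

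**Figure D1:**
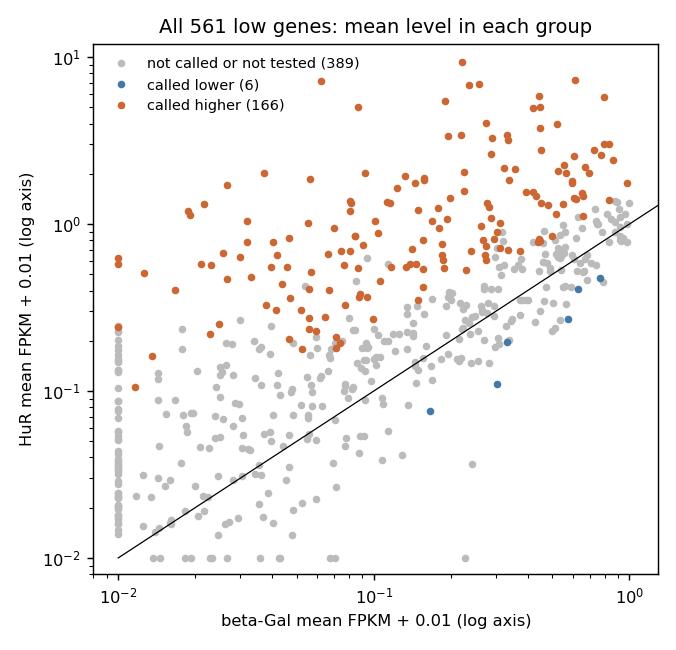
Mean FPKM of each of the 561 low genes in the 3 beta-Gal libraries (horizontal axis) and the 3 HuR libraries (vertical axis), both with 0.01 added and on log axes, with a line where the means are equal. The 166 genes called higher reach HuR means of 9.37 FPKM, and the 6 called lower lie close under the line.

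Depth limits what can be said of many of these genes. Only 344 of the 561 had the 30 reads over 6 libraries that the test asked for, 217 did not, 59 had no read in any control library and 63 stayed under 3 reads in each of the 6. A gene can reach 30 reads through the HuR libraries alone and must then differ. The shares of all 561 genes count untested genes as not called, which does not take such genes out of the count. The shares of tested genes hold them too. Under a filter on control reads only (at least 15 over the 3 beta-Gal libraries), 262 genes of the set were tested and 100 were higher in HuR, which is 38.2% of those tested, against 13.1% of the other low genes and 17.0% of all genes. Choosing the genes on 1 control library and comparing HuR with the other beta-Gal libraries gave 155 of 561, 155 of 562 and 152 of 567 genes higher, which is 27.6%, 27.6% and 26.8% of all of them and 44.9%, 44.9% and 43.4% of those tested. The other low genes were higher in 6.22%, 5.95% and 6.13% of all cases and in 14.9%, 14.4% and 14.7% of those tested. Independently of any fit, every HuR library lay above every beta-Gal library for 239 of the 561 genes (42.6%) and below for 29, while it lay above for 17.9% of the other low genes and for 19.4% of all gene models with a read. Among all genes tested these shares were 26.8% above and 26.5% below.

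The 166 genes called higher had a median log2 difference of 1.90 and a median ratio of the group means of 6.86. Their HuR means ran from 0.0955 to 9.37 FPKM, and 81 of them reached 1 FPKM. Replicate 1 of the HuR group was the highest library for 63 genes, replicate 2 for 52 and replicate 3 for 51, so that the highest values were spread over the 3 libraries. All 166 had groups that did not overlap, and 3 had no control read at all.

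The share of genes higher in HuR was smaller at longer gaps. Of 97 genes that start within 1000 bp of the upstream end, 47 (48.5%) were higher and none lower. Of 101 genes at over 1000 to 2500 bp, 43 (42.6%) were higher and 1 was lower, and of 138 genes at over 2500 to 5000 bp, 34 (24.6%) were higher and none lower. The last 225 genes, at over 5000 to 10000 bp, held 42 (18.7%) that were higher and 5 that were lower. A gene may owe its test to its HuR reads, so the order was also read under filters that do not look at the groups or look at the control reads alone. Without any filter on reads, the median log2 difference over all genes of the 4 classes was 0.96, 0.88, 0.36 and 0.35. Under the filter on control reads, 28 of 48 tested genes (58.3%), 26 of 50 (52.0%), 22 of 66 (33.3%) and 24 of 98 (24.5%) were higher. Beyond the limit of the set, low genes 10000 to 20000 bp past an active gene were higher in 37 of 330 cases (11.2%), and those 20000 to 50000 bp past one in 76 of 626 (12.1%). The median gap was 2237.5 bp for the genes higher in HuR, 4435 bp for those not called or not tested and 6368.5 bp for those lower. Across the 344 tested genes the gap and the log2 difference had a Spearman rho of -0.295, given as a description over genes that share the same 6 libraries.

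Genes whose own span overlaps another active gene could take up its reads, and the order by gap was the same without them. The set has 49 such genes, of which 13 (26.5%) were higher, and 512 others, of which 153 (29.9%) were higher. Among the 512, the shares along the 4 classes of gap were 50%, 44.9%, 25% and 17.9%. Of 359 genes that neither overlap an active gene nor share an exon base with any other gene model in GENCODE M21, 104 (29.0%) were higher.

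The downstream position on the same strand showed the largest share among the arrangements compared. Low genes with no active gene overlapping or within 10000 bp were higher in 227 of 4162 cases (5.45%). Those whose only active neighbour starts divergently were higher in 16 of 206 (7.77%), those that lie in front of an active gene on the same strand in 33 of 290 (11.4%), and those that face the end of an active gene on the opposite strand in 83 of 472 (17.6%). Low genes outside the set whose span overlaps an active gene were higher in 76 of 414 cases (18.4%). Genes of the set with the downstream arrangement alone and no overlap were higher in 99 of 339 cases (29.2%). Genes within the same distance of an upstream gene of 1 to under 5 FPKM, which are not in the set, were higher in 63 of 313 cases (20.1%), and those behind a gene below 1 FPKM in 74 of 1044 (7.09%). These shares differ in how many genes could be tested, and the differences between them were given no test of their own.

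**Figure D2:**
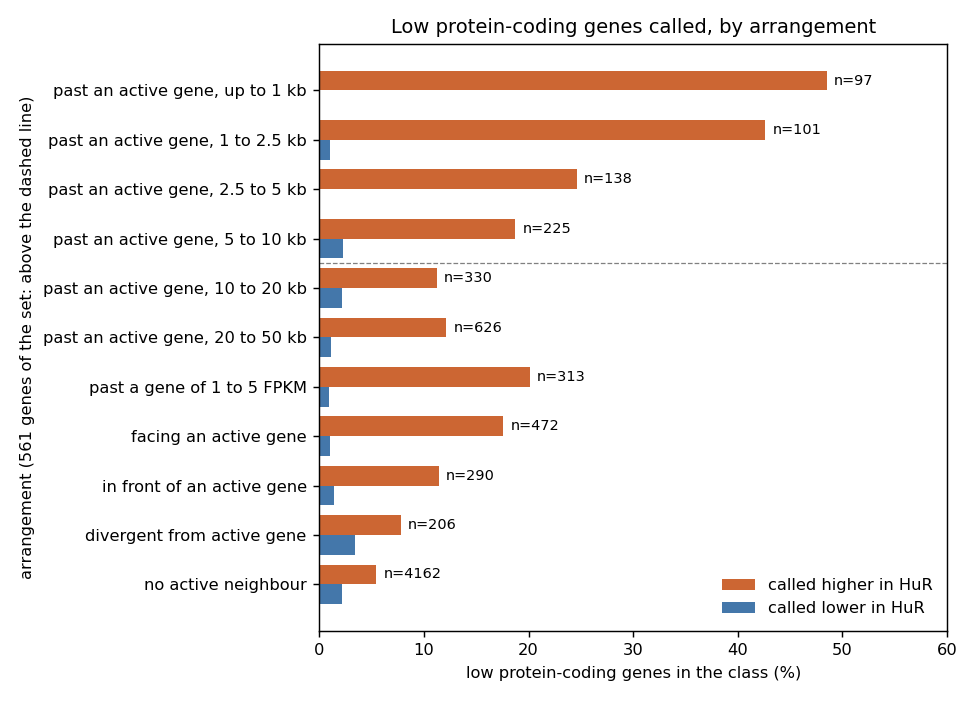
Percent of low protein-coding genes called higher (orange) or lower (blue) in HuR, of all genes in each class (n beside the bar, untested genes included), by arrangement to a gene of at least 5 FPKM unless another level is named. The share called higher falls from 48.5% within 1 kb to 18.7% at 5 to 10 kb and is 5.45% with no active neighbour; the classes below the dashed line can share genes.

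Among the genes whose span overlaps no other active gene, Gzmm (ENSMUSG00000054206, chromosome 10 from 79689020 to 79695261 on GRCm38, as for all positions here, plus strand) reached the highest level in HuR libraries. It encodes granzyme M, a serine protease of natural killer cells, and starts 622 bp past Cdc34, a ubiquitin-conjugating enzyme. Its FPKM was 0.122, 0.273 and 0.239 in beta-Gal libraries and 9.43, 9.10 and 9.58 in HuR libraries. The groups lay far apart and the HuR values hardly varied (4.96 on the log2 scale, SE 0.20, adjusted p = 2.40e-05 in limma). Cdc34 itself was at 93.9 FPKM in beta-Gal and 103 FPKM in HuR libraries and was not called (adjusted p = 0.0539). The rise of Gzmm amounted to 8.92% of the HuR level of Cdc34.

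Markers of T and NK cells were at or near 0 in both groups. Of 12 of them (Cd3e, Prf1, Ncr1 and others), 8 had no read in any library, and their summed level was 0 to 0.108 FPKM in beta-Gal and 0.0183 to 0.0407 FPKM in HuR libraries. Unc13d (chromosome 11 from 116062095 to 116077961, minus strand), which cytotoxic lymphocytes need to release their granules, stood at 0.0768, 0.0123 and 0.0501 FPKM in beta-Gal and at 1.86, 2.09 and 1.64 FPKM in HuR libraries. It rose with no overlap between groups (log2 difference 3.76, SE 0.22, adjusted p = 5.94e-05) and starts 612 bp past Wbp2, which was not called (28.3 and 30.9 FPKM).

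Ccdc154 (ENSMUSG00000059562, chromosome 17 from 25162461 to 25171913, plus strand), a coiled-coil protein, showed the largest difference of the set. It starts 357 bp past Clcn7, a lysosomal chloride and proton exchanger. Its FPKM was 0.0227, 0.0218 and 0.111 in beta-Gal libraries and 6.88, 7.07 and 7.54 in HuR libraries. All HuR values were high, and they rest on 896 reads against 7 in the control group (log2 difference 5.63, SE 0.24, adjusted p = 2.42e-05). Clcn7 went the other way, from 23.3 to 20.4 FPKM (log2 difference -0.19, adjusted p = 0.0171).

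Ubap1l, a relative of the ubiquitin-binding protein UBAP1 (chromosome 9 from 65361041 to 65380377, plus strand), starts 1398 bp past Pdcd7, a component of the minor spliceosome. It stood at 0.355, 0.121 and 0.199 FPKM in beta-Gal and at 6.55, 6.85 and 6.90 FPKM in HuR libraries, without overlap (log2 difference 4.46, SE 0.26, adjusted p = 5.39e-05). Here the upstream gene rose as well, from 4.18 to 9.77 FPKM, and the gain of Ubap1l came to 67.0% of the HuR level of Pdcd7. Pdcd7 passed the limit of 5 FPKM (mean of 6.97 over all 6 libraries) only through the HuR libraries. Its rise is thus part of how Ubap1l entered the set.

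Ctsk encodes cathepsin K, the collagen-degrading protease of osteoclasts (chromosome 3 from 95499256 to 95509362, plus strand). Its FPKM was 0.0396, 0.152 and 0.349 in beta-Gal libraries and 6.55, 5.35 and 4.37 in HuR libraries. The control values spread over almost an order of magnitude but none came near the HuR values (log2 difference 4.44, SE 0.41, adjusted p = 3.00e-04). Its upstream gene, Arnt, a partner of the hypoxia-inducible factors, ends 2016 bp before it and was not called (12.4 and 11.2 FPKM).

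The next 5 genes without overlap had log2 differences from 3.49 to 4.06. Ager, the receptor for advanced glycation end products (chromosome 17 from 34597862 to 34600936, plus strand), follows Pbx2 after 462 bp and stood at 0.140, 0.0536 and 0.0548 FPKM in beta-Gal and 2.30, 1.78 and 1.98 FPKM in HuR libraries. Lct, the lactase of the small intestine (chromosome 1 from 128284756 to 128328318, minus strand), follows the helicase subunit Mcm6 after 3272 bp and stood at 0, 0.00895 and 0.0183 FPKM in beta-Gal and 1.13, 1.01 and 1.24 FPKM in HuR libraries. Ctrl, a chymotrypsin-like protease of the exocrine pancreas (chromosome 8 from 105932003 to 105933862, minus strand), follows the immunoproteasome subunit Psmb10 after 1873 bp and stood at 0, 0.0496 and 0 FPKM in beta-Gal and 2.07, 1.24 and 1.83 FPKM in HuR libraries. In all 3 every HuR library was above every control library, and the control values of Lct and Ctrl rest on 3 reads and 1 read. The ratio of reads between groups was 123 for Lct (95% interval 41.7 to 599) and 100.3 for Ctrl (17.6 to 4005), intervals that cover counting error only. Itgb1bp2, a muscle protein also called melusin (chromosome X from 101449088 to 101453541, plus strand), follows the RNA-binding protein Nono after 497 bp and stood at 0.166, 0.0956 and 0.293 FPKM in beta-Gal and 3.77, 3.44 and 2.82 FPKM in HuR libraries. A3galt2, an alpha-1,3-galactosyltransferase (chromosome 4 from 128755364 to 128769298, plus strand), follows the Polycomb protein Phc2 after 2483 bp and stood at 0.0167, 0.0160 and 0.0490 FPKM in beta-Gal and 2.44, 1.76 and 1.88 FPKM in HuR libraries. Groups were separate in these as well, and the log2 differences of the 5 genes ran from 3.49 (Lct) to 4.06 (A3galt2). Their limma adjusted p-values ran from 3.80e-05 (A3galt2) to 1.35e-04 (Itgb1bp2). Of their upstream genes, Mcm6 (27.1 to 38.3 FPKM), Pbx2 (5.36 to 7.73 FPKM) and Phc2 (13.2 to 16.0 FPKM) were called higher in HuR. Nono was called lower (39.4 to 31.3 FPKM), and Psmb10 was not called. Psmb10 is the nearest of 3 active upstream genes in range of Ctrl.

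The last 4 genes named without overlap had log2 differences between 3.5 and 3.53. Bnipl, related to the apoptosis-associated protein BNIP2 (chromosome 3 from 95241271 to 95251193, minus strand), follows Prune1 after 2481 bp and stood at 0.365, 0.225 and 0.204 FPKM in beta-Gal and 3.73, 4.40 and 4.02 FPKM in HuR libraries. Prune1 fell from 16.0 to 10.6 FPKM over the same libraries (log2 difference -0.58), and 14.3% of the exon bases of Bnipl are shared with another gene model of its strand. Sfxn4, a mitochondrial inner membrane protein of the sideroflexin family (chromosome 19 from 60837277 to 60861479, minus strand), follows the mitochondrial peroxiredoxin Prdx3 after 2572 bp and stood at 0.181, 0.212 and 0.237 FPKM in beta-Gal and 3.26, 3.24 and 3.69 FPKM in HuR libraries. Its rise came to 1.86% of the HuR level of Prdx3, which fell from 199 to 171 FPKM. Lsmem1, a single-pass membrane protein (chromosome 12 from 40175493 to 40199490, minus strand), follows Ifrd1 after 2077 bp and stood at 0.0263, 0 and 0 FPKM in beta-Gal and 1.54, 1.28 and 0.759 FPKM in HuR libraries. Lman1l, a lectin related to the cargo receptor LMAN1 (chromosome 9 from 57607085 to 57620774, minus strand), follows the kinase gene Csk after 5872 bp and stood at 0, 0 and 0.0348 FPKM in beta-Gal and 1.5, 1.84 and 0.571 FPKM in HuR libraries. Both had 1 control read, no overlap between groups and their lowest HuR value in replicate 3. Their upstream genes, Ifrd1 and Csk, were not called. In Lsmem1 12.5% of the exon bases lie opposite an exon of another gene model, and Ifrd1 is the nearest of 2 active upstream genes in range. The adjusted p of the 4 genes was at most 7.53e-04 in limma.

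**Figure D3:**
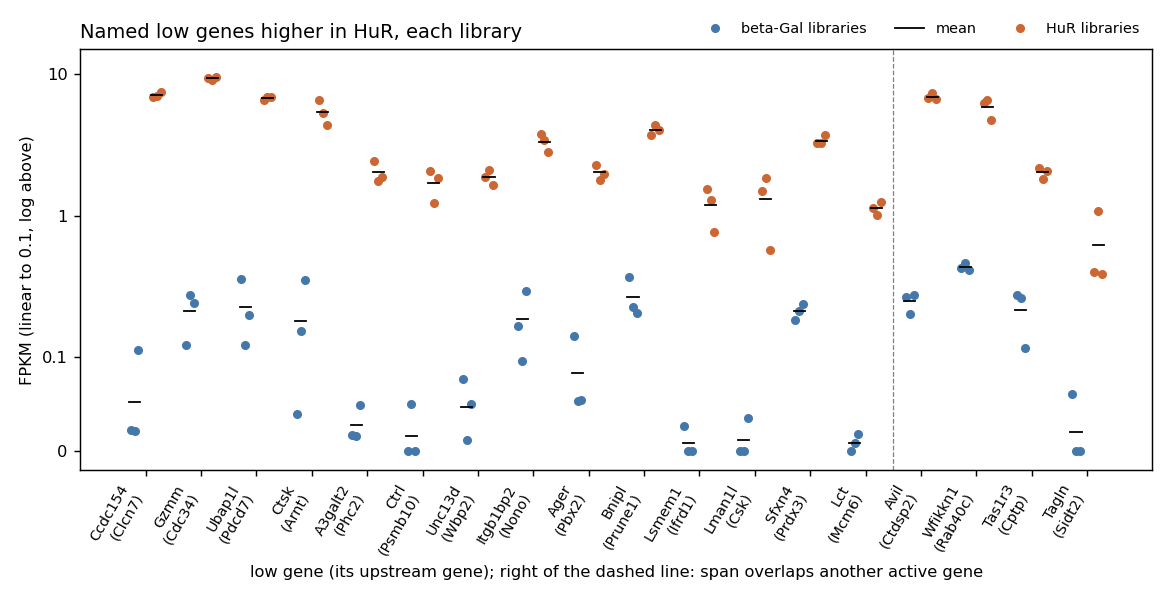
FPKM of the 18 named genes higher in HuR in each of the 3 beta-Gal libraries (blue) and 3 HuR libraries (orange), with group means as bars, on an axis that is linear up to 0.1 and logarithmic above. In each gene all HuR points lie above all beta-Gal points, and Gzmm is highest at a mean of 9.37 FPKM.

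The 4 largest rises among genes whose span overlaps another active gene, in each case on the opposite strand, also had separate groups, but part of their reads could belong to that gene. The share of exon bases that lie opposite an exon of another gene model was 0% for Wfikkn1, 1.02% for Tas1r3, 4.86% for Avil and 67.9% for Tagln. Avil, advillin, an actin-binding protein of sensory neurons (chromosome 10 from 127000709 to 127020994, plus strand), follows Ctdsp2 after 734 bp and stood at 0.264, 0.203 and 0.276 FPKM in beta-Gal and 6.82, 7.36 and 6.66 FPKM in HuR libraries. Wfikkn1, a secreted protein that binds myostatin (chromosome 17 from 25877630 to 25880305, minus strand), follows Rab40c after 1809 bp and stood at 0.423, 0.463 and 0.414 FPKM in beta-Gal and 6.24, 6.61 and 4.76 FPKM in HuR libraries. Tas1r3, a subunit of the sweet and umami taste receptors (chromosome 4 from 155859268 to 155863362, minus strand), follows Cptp after 1361 bp and stood at 0.272, 0.260 and 0.117 FPKM in beta-Gal and 2.19, 1.82 and 2.08 FPKM in HuR libraries. The groups were separate in these 3 genes, with limma log2 differences of 4.35, 3.47 and 2.79 and adjusted p-values of at most 2.45e-04. Tagln, transgelin of smooth muscle (chromosome 9 from 45929619 to 45936058, minus strand), follows Sidt2 after 1799 bp and stood at 0.0602, 0 and 0 FPKM in beta-Gal and 0.401, 1.08 and 0.387 FPKM in HuR libraries (log2 difference 2.5, SE 0.40, adjusted p = 0.00289). Its control group held 2 reads. Of the upstream genes of these 4, Rab40c was called higher in HuR (6.37 to 12.4 FPKM). Cptp (8.77 to 5.97 FPKM) and Sidt2 (44.3 to 39.1 FPKM) were called lower, and Ctdsp2 was not called. The stellate cell markers, among them the smooth muscle actin Acta2, summed to at most 0.149 FPKM in beta-Gal and 0.105 FPKM in HuR libraries, and Acta2 had no read in any library.

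The upstream genes moved in both directions. Of 545 distinct upstream genes, 144 (26.4%) were higher and 115 (21.1%) lower in HuR, with a median log2 difference of 0.05, while of all 6551 genes at 5 FPKM or more 23.0% were higher and 25.9% lower. Low genes behind a gene that was itself higher in HuR were higher in 40 of 148 cases (27.0%), those behind a gene that was lower in 44 of 117 (37.6%), and those behind a gene that was not called in 82 of 296 (27.7%). Over the 344 tested genes the differences of the downstream and the upstream gene had a Spearman rho of -0.0101, again only a description. Within the set, the level of the upstream gene sorted the genes little. Behind genes of 5 to under 20 FPKM 105 of 369 (28.5%) were higher, behind genes of 20 to under 100 FPKM 52 of 160 (32.5%), and behind genes of 100 FPKM or more 9 of 32 (28.1%). Below the limit of the rule the shares were smaller, with 20.1% behind genes of 1 to under 5 FPKM and 7.09% behind genes below 1 FPKM.

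**Figure D4:**
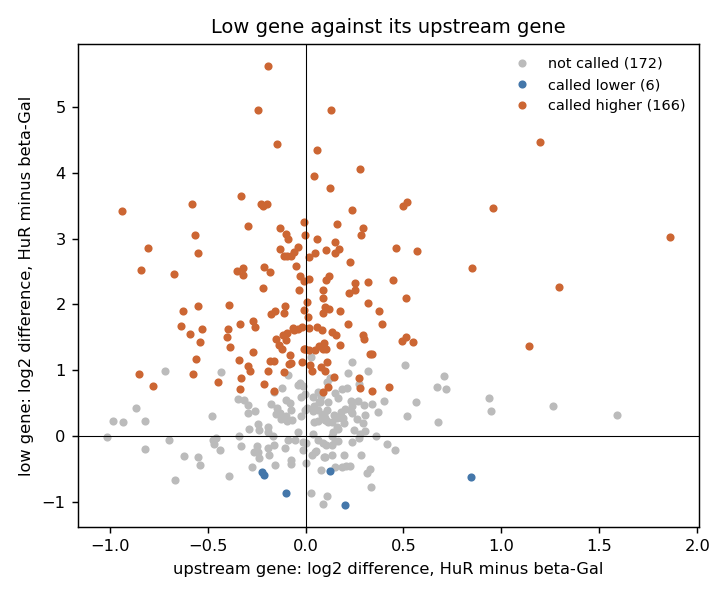
Log2 difference between HuR and beta-Gal (log2 of FPKM + 0.1) of the upstream gene (horizontal axis) and of the low gene behind it (vertical axis) for the 344 low genes tested. The 166 genes called higher lie on both sides of 0 on the horizontal axis, 40 of them behind a gene called higher and 44 behind one called lower.

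Over all 561 genes, the difference of the group means had a median of 0.48% of the HuR level of the upstream gene. Among the 166 genes, chosen for their rise, it came to a median of 4.67% of the HuR level of the upstream gene, with quartiles of 2.29% and 11%. It was at least 10% for 47 genes and at least 50% for 4, with a maximum of 75.1% for Adig, a small protein of adipocytes, behind Ralgapb. Adig stood at 0.665, 0.425 and 0.145 FPKM in beta-Gal and 5.33, 4.56 and 4.91 FPKM in HuR libraries and was picked for this maximum after its values were seen.

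Where several low genes followed 1 upstream gene, they could differ, and the pairs given here were also picked after their values were seen. Fxyd7 and Fxyd5, regulators of the sodium pump, follow Fxyd1 after 211 and 9197 bp. Fxyd7 stood at 0.173, 0.0828 and 0.0846 FPKM in beta-Gal and 1.53, 1.72 and 1.67 FPKM in HuR libraries, and it was called higher (limma adjusted p = 9.63e-05). Fxyd5 stood at 0.0429, 0.109 and 0.0979 FPKM in beta-Gal and 0.127, 0.227 and 0.199 FPKM in HuR libraries, without overlap but without a call (adjusted p = 0.0823). The nearest gene did not always have the highest HuR level. Mamdc4 lies 8173 bp past Rabl6 and went from a mean of 0.716 to 2.76 FPKM (adjusted p = 0.0015), while Gm996, only 1261 bp past the same gene, had too few reads to test (0 and 0.0240 FPKM) and Phpt1, a histidine phosphatase at 7794 bp, likewise (0.254 and 0.296 FPKM).

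Short gaps came with and without a rise, as among the 6 genes whose whole gaps are given above. Fbxl22, an F-box protein of muscle, starts 44 bp past Usp3 in the coordinates of the table and stood at 0.259, 0.160 and 0.0894 FPKM in beta-Gal and 1.08, 0.756 and 0.978 FPKM in HuR libraries. Tmem25, a transmembrane protein, starts 90 bp past Ttc36 and stood at 0.503, 0.446 and 0.566 FPKM in beta-Gal and 0.765, 1.20 and 1.44 FPKM in HuR libraries. Groups were separate in both, with limma adjusted p-values of 0.00158 and 0.0159. GENCODE M21 lists a read-through transcript for 6 of the 166 genes called higher, 1 of the 6 called lower and 11 of the rest of the set.

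The 6 tested genes with the shortest gaps that were not called follow their neighbours at 116 to 351 bp. Fut11, a fucosyltransferase, stood at 0.986, 0.823 and 1.159 FPKM in beta-Gal and 1.17, 1.498 and 1.33 FPKM in HuR libraries behind Sec24c. These groups did not overlap, but the difference of 0.40 (SE 0.17) missed the threshold (limma adjusted p = 0.107). Apoc2, the activator of lipoprotein lipase, stood at 0.295, 0.564 and 0.649 FPKM in beta-Gal and 0.0817, 0.293 and 0.316 FPKM in HuR libraries behind Apoc4 (log2 difference -0.91, adjusted p = 0.112). Its groups overlapped, and 79.5% of its exon bases are shared with another gene model on the same strand, so its low level is uncertain. The zinc transporter Slc39a5 behind Nabp2, Tmem88 behind Kdm6b, the germ cell RNA-binding protein Dnd1 behind Hars and Cracr2b behind Pnpla2 had log2 differences of 0.45, 0.91, 1.20 and 0.34 with standard errors of 0.31, 0.43, 0.40 and 0.22. None passed, the nearest being Dnd1 (adjusted p = 0.0502), which stood at 0.298, 0.428 and 0.195 FPKM in beta-Gal and 1.29, 0.419 and 0.931 FPKM in HuR libraries, where replicate 2 reached into the control range. Without HuR replicate 2 its adjusted p was 0.0118. The spans of Slc39a5, Tmem88 and Dnd1 overlap an active gene on the opposite strand, and part of their reads could belong to it. In Cracr2b 50.8% of the exon bases lie opposite an exon of another gene model. Kdm6b, at 3.72 FPKM in beta-Gal and 6.44 FPKM in HuR libraries, passed the limit of 5 FPKM only through the HuR libraries.

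The 6 genes called lower were Lrp2bp, Trim80, Gpr4, Zcchc4, Nim1k and Rbm4, at gaps with a median of 6368.5 bp, with ratios of the HuR to the beta-Gal mean from 0.345 (Lrp2bp) to 0.638 (Rbm4). Trim80 had the smallest adjusted p among them (0.0136, limma) and stood at 0.557, 0.445 and 0.697 FPKM in beta-Gal and 0.275, 0.277 and 0.232 FPKM in HuR libraries behind Kctd2. Gpr4, a proton-sensing receptor, stood at 0.145, 0.179 and 0.142 FPKM in beta-Gal and 0.0461, 0.0620 and 0.0890 FPKM in HuR libraries, although Eml2 in front of it rose from 5.70 to 10.3 FPKM. Zcchc4, a methyltransferase of ribosomal RNA, went from a mean of 0.759 to 0.469 FPKM, and Rbm4, a splicing regulator, from 0.621 to 0.396 FPKM. In Rbm4 60.5% of the exon bases are shared with another gene model on the same strand. In all 6 the groups did not overlap, with log2 differences from -1.05 (Lrp2bp) to -0.54 (Rbm4). Without beta-Gal replicate 3 the adjusted p of Trim80 was 0.0501. The calls of Nim1k and Rbm4 ended without any 1 library (0.0559 to 0.116), and those of Lrp2bp, Gpr4 and Zcchc4 without any 1 library other than HuR replicate 3 (0.0587 to 0.128).

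Fut11 (0.989 FPKM) and Ccdc17 (0.974 FPKM) lay just under the ceiling on the beta-Gal mean, and Tgfbr3l (1.01 FPKM) and Slc7a6 (1.02 FPKM) just above it. Gm10392 (9964 bp) and Apbb1 (9960 bp) had the longest gaps inside, and Gm5294 (10003 bp) and Smyd3 (10014 bp) the shortest outside. The upstream genes of Scarf1 and Wdr47 averaged 5.04 and 5.06 FPKM, and those of Fblim1 and Dbndd2, just outside, 4.996 and 4.98 FPKM.

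Genes for cleavage, polyadenylation and termination were measured in the same libraries. Of a list of 32, all tested, 6 were higher and 10 lower, with a median log2 difference of -0.02, while 19.4% of all genes tested were higher and 19.6% lower. The 3 with the smallest adjusted p are given first. Papola, the main nuclear poly(A) polymerase, stood at 30.8, 32.0 and 32.9 FPKM in beta-Gal and 16.8, 17.6 and 16.2 FPKM in HuR libraries (log2 difference -0.91, SE 0.05, limma adjusted p = 3.91e-05). Scaf8, an RNA polymerase II-binding factor that restrains early polyadenylation, fell from a mean of 14.2 to 9.55 FPKM, and Cstf3, a subunit of the cleavage stimulation factor, rose from 3.88 to 6.81 FPKM. Of the other calls, named after their values were seen, the exonuclease Xrn2 fell from 24.4 to 19.6 FPKM, the termination factor Pcf11 rose from 5.54 to 8.76 FPKM, and Ppp1r10, a phosphatase subunit, rose from 5.01 to 12.2 FPKM with the largest log2 difference of the list (1.25). The elongation factor Supt5, the most abundant of the list without a call, was at 21.7 and 20.6 FPKM.

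Across the series, the recovered whole reads came to 15413306 to 17108184 per library, and 1 read on a gene model of 1 kb was worth 0.057 to 0.066 FPKM. Elavl1, the delivered gene, was at 5.45 to 5.91 FPKM in beta-Gal and at 1662 to 2434 FPKM in HuR libraries, a log2 difference of 8.37 (SE 0.139). Hepatocyte markers dominated every library, with 8 of them summing to 17920 to 18274 FPKM in beta-Gal and 19177 to 20457 FPKM in HuR libraries. Most of this was Alb (means of 13387 and 14857 FPKM), which was not called. Of the 8, only Tat was called higher (27.4 to 42.6 FPKM) and only Cps1 lower (28.9 to 18.5 FPKM). Among markers of other cells, 7 of macrophages summed to 245 to 280 FPKM in beta-Gal and 336 to 433 FPKM in HuR libraries, nearly all of it Cd14 and Cd68, which were called higher. The other 5 were not called, among them the Kupffer cell markers Clec4f (0.340 and 0.240 FPKM) and Vsig4 (0.0132 and 0 FPKM). The 5 of cholangiocytes summed to 138 to 151 and 180 to 198 FPKM, nearly all of it Spp1, which was called higher, and the 6 of endothelial cells to 4.08 to 4.43 and 5.16 to 6.12 FPKM with no call. The lists of B cells, neutrophils, neurons and germ cells stayed at or below 0.428 FPKM in every library, with Ms4a1, Mpo, Snap25, Tnp1 and Prm1 at 0 throughout. The part of these other cells in the rise of the 166 genes was not tested.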

How the data were processed

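The genes of the set and the lists were chosen with earlier results of these data known. The table deposited by the authors gives FPKM per gene model. The tools DESeq2 1.16.1, featureCounts 1.5.0-p3 and HISAT2 2.0.5 and the build GRCm38.p6 are named without their roles, per the submitters' processing notes. Strand-specificity of the libraries is not given in the sources used, so reads of overlapping genes on opposite strands may be mixed. Groups and replicate numbers came from the sample titles.

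FPKM times model length gave whole reads for all values (tolerance 0.001). The total by which reads had been scaled was not the number of recovered reads. For HuR replicate 1 it was 15054745 against 15902608 recovered, and in every other library it lay above the recovered reads. limma 3.58.1 in R 4.3.3 (lmFit, eBayes with trend) was run on log2(FPKM + 0.1) over 14977 genes with at least 30 reads in the 6 libraries, the group as the only term, with a two-sided Benjamini-Hochberg adjusted p of at most 0.05. A count model was not used as the main test because the unit is FPKM. On simulated data this step was tested beforehand. The set was described by counts, with no test of its own. A gap is the start of the gene minus the end of the nearest active upstream gene in the coordinates of the table. Intervals are exact at 95% and cover counting error only.

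Named genes were the 14 largest rises without overlap, the 4 with overlap and the 6 largest falls among called genes with separate groups and ordinary names, the 6 uncalled tested genes with the shortest gaps, the 2 nearest genes on each side of each limit, and 3 called and 1 uncalled gene of the termination list. Alternatives were other pseudocounts, filters and scalings, voom on recovered reads, the replicate number as a block, other limits of the set and each library left out. Exon sharing used GENCODE M21, and sequences came from RefSeq. Some results of the set are not reported here. Other software was pandas 2.3.3, numpy 2.4.6, matplotlib 3.10.9 and scipy 1.17.1 under Python 3.11.15.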

Additional observations from a re-analysis of the deposited data

How the results depend on the processing

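The count of low genes called higher (166) stayed within 1.5 times under other pseudocounts, a filter of 12 reads or none, TPM scaling (158), median centring (177), a fit to protein-coding genes only (178), limma voom on recovered whole reads (171) and the omission of each library (150 to 162). It was 64 with FPKM of at least 1 in 3 libraries, 110 with an upstream mean of at least 10 FPKM and 100 with at least 15 control reads, a filter chosen after seeing the data. The other low genes called higher (460) numbered 111 and 281 under the first and the last of these and 337 to 442 with a library left out. These settings test fewer genes. Under the ceiling on the beta-Gal mean, a gene of the set reaches 1 FPKM in 3 libraries mostly through the HuR libraries. That filter therefore largely picks genes that rose (71 of the set tested, 64 higher), and its count says little about the rise.

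The count called lower (6) was 0 without a filter and where 3 libraries had to reach 1 FPKM. It was 1 with 12 reads and with gaps up to 5000 bp, and 2 with median centring and with an upstream mean of at least 10 FPKM. It was 1, 1 and 0 when the set was chosen on beta-Gal library 1, 2 or 3, and 0 to 5 with a library left out. The cause was not tested. By unadjusted p under 0.05 it was 13.

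The median log2 difference of the tested genes (0.76) was 0.38 and 0.24 with pseudocounts of 0.5 and 1 and 0.47 with no filter. With FPKM of at least 1 in 3 libraries, which largely picks genes that rose, the median was 2.47. The median was 0.87 under TPM scaling, 1.20 with voom and 1.07 for gaps up to 5000 bp. With at least 15 control reads it was 0.49, and with a library left out 0.75 to 0.84. Over all genes, 49.7% of the calls were higher, against 34.5% under TPM scaling (2037 higher, 3870 lower) and 59.9% with median centring (3640 higher, 2441 lower). Of all tested genes, 2157 to 2895 were higher and 2135 to 3012 lower with a library left out.

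The replicate number as a block gave 160 low genes higher and 3 lower, and 2600 and 2545 over all genes. Same-numbered libraries deviated together with r of 0.018, 0.043 and 0.004, so the numbers were not taken as pairs. Under the block Apoc2 passed (adjusted p = 0.0245). Dnd1 passed with median centring (0.0400) and among protein-coding genes only (0.0305). The 18 named rises kept their call in every fit that tested them, and no named gene changed sign. The filter of at least 15 control reads did not test Ccdc154, Ctsk, A3galt2, Ctrl, Unc13d, Ager, Lsmem1, Lman1l, Lct and Tagln. These genes reached 30 reads mostly through the HuR libraries, so the calls they kept say little about the choice of filter. Genes under 30 reads were judged only under looser filters: with 12 reads 432 genes of the set were tested and 184 were higher (162 of the 166 among them), and with no filter 561 and 165 (143 of the 166).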
